A study of Triticum aestivum with 6 samples.

Results

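PIMT, PER1, Prx1 and GSTZ1 are 4 wheat genes named for the repair of aged proteins or for the removal of peroxides and other reactive compounds. Their probe sets were taken by name: every probe set that the array's annotation pairs with exactly 1 gene, and whose symbol or RefSeq synonym is one of these names, was taken. This gave 10 probe sets of the 4 genes, out of 1273 probe sets of 771 genes with such a pairing: 1 for PIMT (LOC543193), 2 for PER1 (LOC543108), 4 for Prx1 (LOC606328) and 3 for GSTZ1 (LOC543412). The rule for probe sets uses names only, but the 4 genes were chosen with earlier results of these data known.

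RNA was extracted from wheat embryos (Triticum aestivum, genotype AC Domain), taken from mature seeds that had been imbibing water for 48 h. The compared seeds had developed at 13 °C or at 28 °C, with 3 biological replicates per temperature and 1 Affymetrix wheat GeneChip per replicate. Until flowering, the mother plants of both groups shared days of 16 h at 22 °C and nights of 8 h at 18 °C, and only then were they moved to either temperature until harvest. The labels give the tissue as seed and the titles as embryo. The labels do not say whether replicates were separate plants, chambers or seed lots, so p-values measure the spread between these arrays, which may be technical.

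PIMT, protein L-isoaspartyl methyltransferase, uses S-adenosylmethionine to methylate the isoaspartyl residues that form in ageing proteins, a first step in turning them back to aspartyl residues. Dry seeds hold proteins for long periods without replacing them, and this enzyme is a known part of seed protein repair. Peroxiredoxins are thiol enzymes that reduce hydrogen peroxide and organic peroxides. In barley the name Per1 belongs to a peroxiredoxin of the embryo and aleurone, studied for its link to dormancy, but the wheat gene here carries both PER1 and peroxidase as synonyms, and the synonyms of Prx1 do not settle its enzyme class either. GSTZ1 is a zeta class glutathione transferase, the class whose members isomerise maleylacetoacetate with glutathione in the breakdown of tyrosine.

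Levels are the authors' RMA values on the log2 scale, so 1 unit is a doubling, and differences are 13 °C minus 28 °C. A difference was called when limma, fitted to all 61179 probe sets, gave a Benjamini-Hochberg adjusted p under 0.05. RMA gives no detection call, so the highest mean among 23 control probe sets whose transcripts were not spiked in, 4.71, serves as a guide to background. Arrays correlated at 0.993 to 0.997 within a temperature and at 0.953 to 0.964 between temperatures, across probe sets. All 10 probe sets of the embryo markers Em, EM, LEA, rab and WGA2 had means above 4.71, and 8 of them rose, several being Em or EM probe sets. Over all probe sets 18.5% rose, and of those with a mean above 4.71, 52.8% passed in either direction. With scaling to the hybridisation or to the poly-A controls 5 of the embryo marker probe sets passed, and with the replicate number as a block all 10. Their summed level was 15.70 to 16.19 at 13 °C and 13.79 to 14.37 at 28 °C. Of 19 probe sets of endosperm markers 5 were above it, with summed levels of 12.10 to 12.31 at 13 °C and 11.88 to 11.95 at 28 °C. The brightest were 1 probe set of the avenin-like protein ALP (11.47 at 13 °C and 11.01 at 28 °C) and AGP-S, of starch synthesis (10.57 at 13 °C and 10.45 at 28 °C), while the starch synthase GBSS was below it (3.66 at 13 °C and 3.78 at 28 °C). Only ALP was called, with a difference of 0.47 that became -0.16 after scaling to the hybridisation controls. The aleurone marker amy1 was below background at both temperatures (3.26 at 13 °C and 4.26 at 28 °C). It was still called, lower at 13 °C (limma adjusted p = 0.0033), with the groups 0.46 apart and 28 °C array 1 at 4.65. That call is between values below the guide to background. The seedling leaf list held 0 probe sets. The part of the marked tissues in the results was not tested. In embryo tissue as a whole, fewer cells of a type and less RNA per cell cannot be told apart.

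Some control probe sets moved with the temperatures too, which bears on every value that follows. The 27 hybridisation control probe sets averaged 12.07, 11.07 and 11.45 on the 13 °C arrays and 10.89, 10.78 and 11.04 on the 28 °C arrays, so that the groups did not overlap and 13 °C array 1 was the highest. The 36 poly-A control probe sets overlapped. They averaged 9.57, 7.82 and 8.95 on the 13 °C arrays and 8.5, 8.28 and 8.2 on the 28 °C arrays. Their difference of 0.46 was 0.06 without 13 °C array 1. Of 7 RNA length controls, 4 had a higher 3-prime minus 5-prime value at 13 °C with no overlap, by 0.43 to 0.90 on average, 1 (CYP86) had a lower one with no overlap, with a difference of -1.58, and 2 (ubiquitin and actin) overlapped. The part of RNA length in the results was not tested. With scaling to the hybridisation or the poly-A controls, limma gave every probe set of PIMT, PER1, Prx1 and GSTZ1 the same SE (0.33 or 0.54). A pass under these scalings therefore depends on the size of the difference only, not on the spread of that probe set.

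Of the 10 probe sets, 5 rose at 13 °C (3 of them at levels near background), 2 fell and 3 did not pass. Over all probe sets 33.5% passed, 18.5% higher and 15.1% lower. At least 2-fold differences were called for PIMT and PER1, 2 probe sets higher, and for 1 probe set of GSTZ1, lower, against 9.29% of all probe sets in either direction, 3.68% higher and 5.62% lower. The groups did not overlap for 7 of the 10 probe sets, against 44.3% over all. The median difference was 0.22 over the 10 probe sets and 0.062 over all tested. On all 6 arrays 8 of the 10 were above 4.71, as were 30461 of the 61179 tested probe sets. Among those 8 members 4 rose and 2 fell, and of all probe sets with a mean above that level 52.8% passed.

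**Figure D1:**
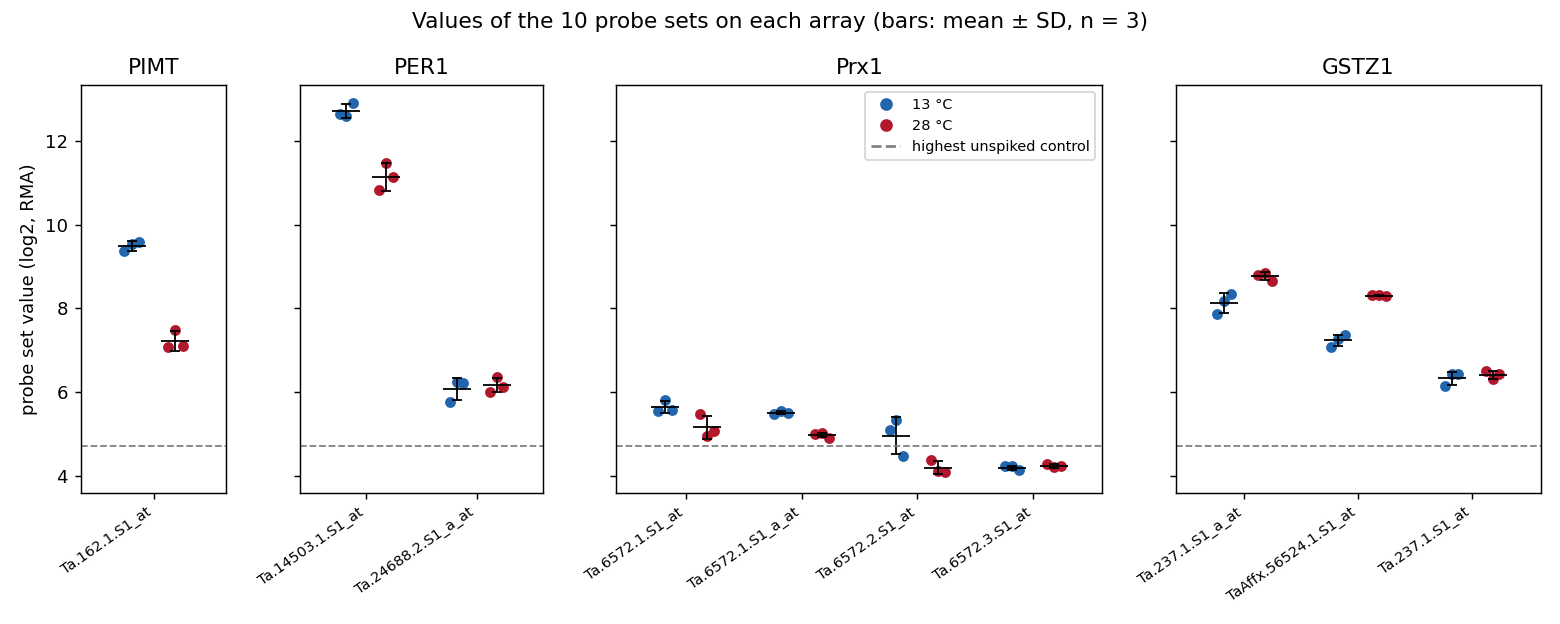
Each point is the RMA log2 value of 1 array for 1 probe set, with 13 °C in blue to the left and 28 °C in red to the right. Black bars are the mean ± SD of 3 arrays and the dashed line marks the highest mean of an unspiked control, 4.71. PIMT and the bright PER1 probe set lie higher at 13 °C with a wide gap, GSTZ1 lies lower on 2 of 3 probe sets, and the Prx1 probe sets lie near the line.

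PIMT showed the largest difference of the 4 genes. Its single probe set, Ta.162.1.S1_at, read 9.37, 9.53 and 9.59 on the 13 °C arrays and 7.07, 7.49 and 7.09 on the 28 °C arrays. Every 13 °C array was higher than every 28 °C array, and the nearest arrays of the groups were 1.87 apart, several times the spread within either group. The means were 9.50 ± 0.12 at 13 °C and 7.22 ± 0.24 at 28 °C (SD, n = 3 each), a difference of 2.27 ± 0.13 (SE; 95% interval 1.98 to 2.57; limma adjusted p = 2.7e-06), or 4.84-fold (3.95 to 5.93). Only 140 of the 61179 probe sets had a larger rise, although 927 had a smaller p. The call held without any single array, at 2.20 to 2.41. After scaling of the arrays to the hybridisation controls (1.65) or to the poly-A controls (1.82) it passed with the shared SE of each scaling (0.33 and 0.54).

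PER1 was represented by a bright and a dim probe set that did not move together. The bright one, Ta.14503.1.S1_at, read 12.65, 12.59 and 12.90 at 13 °C and 10.82, 11.47 and 11.14 at 28 °C. These levels were higher than those of 99.0% of probe sets, and the groups lay 1.13 apart at their nearest arrays. The difference was 1.57 ± 0.16 (SE; 95% interval 1.21 to 1.94; limma adjusted p = 7.5e-05), a 2.97-fold higher signal at 13 °C. It was 1.41 to 1.73 with any single array left out and 0.95 with scaling to the hybridisation controls, past the threshold each time, and 1.12 with scaling to the poly-A controls, where it did not pass (adjusted p = 0.37).

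The dim PER1 probe set, Ta.24688.2.S1_a_at, read 5.77, 6.25 and 6.21 at 13 °C and 6.01, 6.36 and 6.13 at 28 °C. The groups overlapped, and the difference of -0.094 had a 95% interval of -0.43 to 0.24 (limma adjusted p = 0.68), which leaves out the rise of the bright probe set. Taken array by array, the bright minus the dim value differed by 1.67 between temperatures, with no overlap (exact two-sided permutation p = 0.1, the smallest that 3 arrays against 3 allow, and 0.14 after adjustment over the 10 pairs of probe sets compared within genes). Another probe set of the same sequence cluster, Ta.24688.1.S1_at, which the annotation leaves unnamed, read 8.14, 8.51 and 8.47 at 13 °C and 8.24, 8.61 and 8.30 at 28 °C. With each probe set centred on its own mean, it differed from the dim PER1 probe set by a root mean square of 0.062 over the 6 arrays, and 23 of all tested probe sets came nearer. The dim PER1 probe set was 0.85 away from the bright one, and 41973 probe sets came nearer to the bright one than that.

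**Figure D2:**
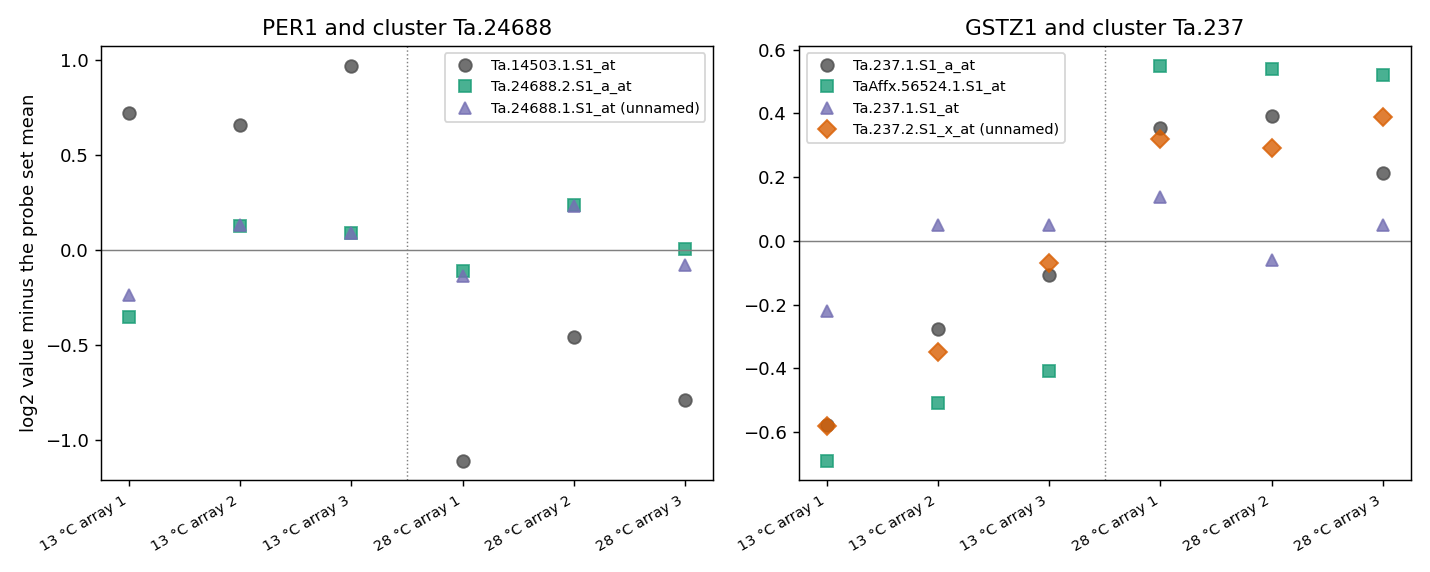
Points are log2 values of each array minus the mean of that probe set over the 6 arrays, with the 13 °C arrays left of the dotted line and the 28 °C arrays right of it. On the left, the dim PER1 probe set and the unnamed Ta.24688.1.S1_at nearly coincide while the bright PER1 probe set splits by temperature. On the right, Ta.237.1.S1_a_at and the unnamed Ta.237.2.S1_x_at lie close together between the other GSTZ1 probe sets.

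Prx1 rose on 3 of 4 probe sets, by small amounts and at low levels. Ta.6572.1.S1_a_at gave the tightest values, 5.48, 5.54 and 5.50 at 13 °C and 4.99, 5.02 and 4.91 at 28 °C. The groups lay 0.46 apart, and the difference of 0.53 ± 0.08 (SE; 95% interval 0.35 to 0.72; limma adjusted p = 0.00085) is 1.45-fold. Ta.6572.1.S1_at, designed from the same sequence entry and the brightest of the 4, read 5.55, 5.80 and 5.57 at 13 °C and 5.47, 4.94 and 5.08 at 28 °C. Here the nearest arrays were only 0.086 apart, with 28 °C array 1 close to the 13 °C arrays (difference 0.48; 95% interval 0.16 to 0.80; limma adjusted p = 0.029). That call was lost with any of 4 single arrays left out, at 0.37 to 0.63 over the 6 omissions.

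The other Prx1 probe sets were at background in at least 1 group. Ta.6572.2.S1_at read 5.09, 5.32 and 4.47 at 13 °C and 4.37, 4.12 and 4.09 at 28 °C, so that 2 of 3 arrays at 13 °C and 0 of 3 at 28 °C were above 4.71. Its difference of 0.77 (limma adjusted p = 0.015) shrank to 0.33 when values under that level were set to it, and it did not pass without 13 °C array 1 (0.70), 28 °C array 2 (0.73) or 28 °C array 3 (0.72). Without 13 °C arrays 1 and 2 together it was 0.28. Ta.6572.3.S1_at was below background on all 6 arrays (4.14 to 4.22 at 13 °C, 4.20 to 4.29 at 28 °C) so its difference of -0.045 (95% interval -0.23 to 0.14; limma adjusted p = 0.72) is between values at background. Array by array, the 3 probe sets that rose differed from each other by -0.29 to -0.052 with overlapping groups (exact permutation p = 0.4 to 0.8), while each differed from Ta.6572.3.S1_at with no overlap (exact p = 0.1, adjusted 0.14). With scaling to the hybridisation controls the differences of the 3 that rose were -0.15, -0.095 and 0.14, and with scaling to the poly-A controls 0.024, 0.076 and 0.31, none past the threshold. Scaling to the hybridisation controls lowers every difference on the array alike by 0.63, and 2 of the 3 turned negative under it, while all 3 stayed positive with scaling to the poly-A controls or to the array median.

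**Figure D3:**
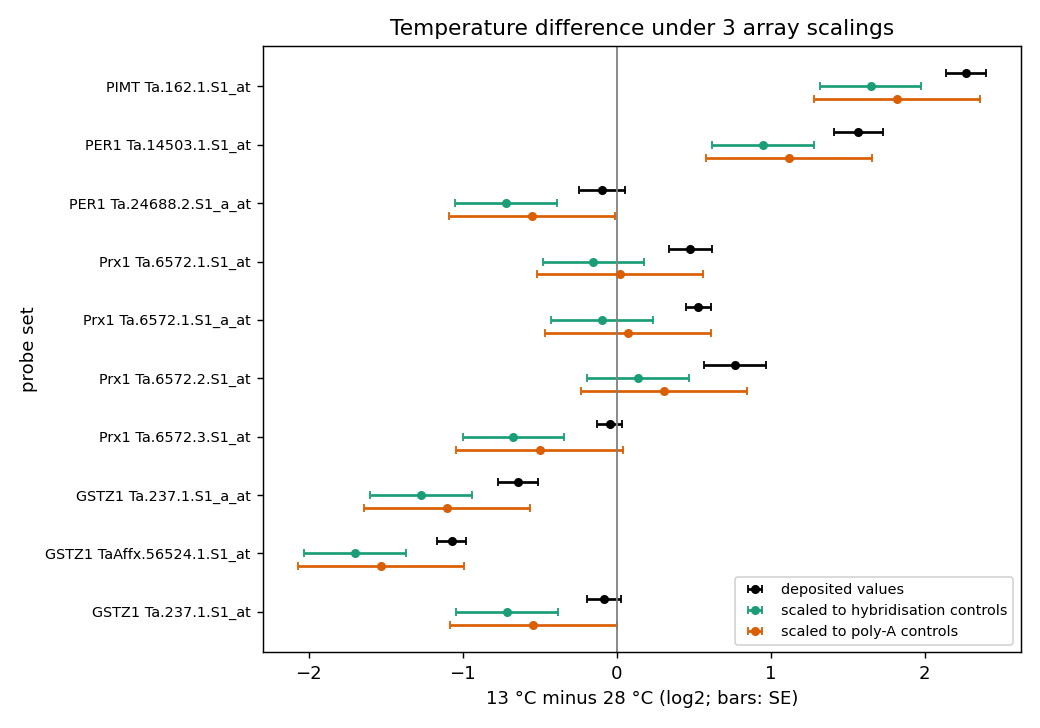
The difference of 13 °C minus 28 °C (log2) is drawn for each probe set with its SE, from the deposited values in black and with arrays scaled to the hybridisation controls in green or to the poly-A controls in orange. PIMT and the bright PER1 probe set stay right of 0 under each. The 3 GSTZ1 probe sets, the dim PER1 probe set and Ta.6572.3.S1_at stay left of 0 under each. Of these, Ta.237.1.S1_at, the dim PER1 probe set and Ta.6572.3.S1_at did not pass under any. The 3 Prx1 probe sets that rose lie between -0.15 and 0.31 under the scalings.

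GSTZ1 ran the other way. TaAffx.56524.1.S1_at read 7.08, 7.26 and 7.36 at 13 °C and 8.32, 8.31 and 8.29 at 28 °C, with every 13 °C array at least 0.93 below every 28 °C array. The means were 7.23 ± 0.14 at 13 °C and 8.31 ± 0.02 at 28 °C (SD, n = 3 each). The difference of -1.07 ± 0.10 (SE; 95% interval -1.29 to -0.86; limma adjusted p = 3.2e-05) makes the signal at 13 °C 0.475 of that at 28 °C. The brightest probe set, Ta.237.1.S1_a_at, read 7.87, 8.17 and 8.34 at 13 °C and 8.80, 8.84 and 8.66 at 28 °C. It fell by 0.64 (95% interval -0.93 to -0.35; limma adjusted p = 0.0038). Both calls held without any single array (-1.14 to -1.0 and -0.75 to -0.51). Scaling to the hybridisation controls lowers every difference on the array alike by 0.63, so any fall grows under it. The 2 differences were then -1.70 and -1.27. With scaling to the poly-A controls they were -1.53 and -1.10 and did not pass, since the SE grew to 0.54.

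The third GSTZ1 probe set, Ta.237.1.S1_at, comes from the same sequence entry as Ta.237.1.S1_a_at but read 6.15, 6.42 and 6.42 at 13 °C and 6.51, 6.31 and 6.42 at 28 °C. The groups overlapped (difference -0.084, 95% interval -0.33 to 0.16; limma adjusted p = 0.60). In each of the 3 pairs of GSTZ1 probe sets the array-by-array difference separated the temperatures without overlap, by 0.44, -0.56 and -0.99 (exact permutation p = 0.1, the smallest possible, and adjusted 0.14, for each). The unnamed Ta.237.2.S1_x_at of the same cluster read 7.71, 7.94 and 8.22 at 13 °C and 8.61, 8.58 and 8.68 at 28 °C. It fell by 0.67 (limma adjusted p = 0.0031), and its centred values lay 0.091 from those of Ta.237.1.S1_a_at, with 81 tested probe sets nearer. Its suffix _x marks probes that can bind other transcripts, and _a marks probes shared by transcripts of 1 gene. On 13 °C array 1, the array with the brightest hybridisation controls, each GSTZ1 probe set had its lowest value; without that array the differences were -1.0, -0.51 and 0.0057, and the part of the array's brightness in them was not tested.

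Differences between genes do not change when all log2 values of an array are shifted alike, because the shift cancels within it. The quantile normalization of RMA is not such a shift, and no other normalization was tried. For the brightest probe set of each gene, the temperature difference of PIMT exceeded that of GSTZ1 by 2.91, that of Prx1 by 1.79 and that of PER1 by 0.70. PER1 exceeded GSTZ1 by 2.21 and Prx1 by 1.09, and Prx1 exceeded GSTZ1 by 1.12. In all 6 pairs the 13 °C arrays lay apart from the 28 °C arrays, with each value kept in sign and between 0.63 and 3.02 whichever single array was left out. On these brightest probe sets the order by signal change was PIMT, PER1, Prx1 and GSTZ1. The other probe sets do not all keep it: the dim PER1 probe set (-0.094) lay below the 3 Prx1 probe sets that rose.

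**Figure D4:**
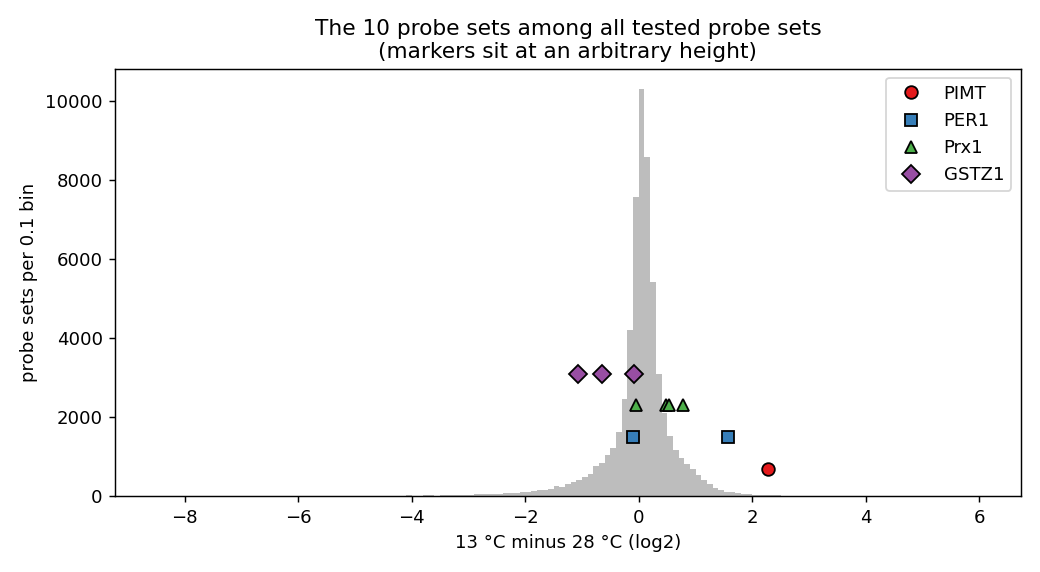
Grey bars count all 61179 tested probe sets by their difference of 13 °C minus 28 °C (log2, bins of 0.1). Coloured markers place the 10 probe sets on that axis at heights with no meaning; PIMT at 2.27 and PER1 at 1.57 lie in the upper tail, and GSTZ1 at -1.07 lies on the lower side.

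Other redox and repair genes on the annotated part of the array were few. Beside the members, the redox and antioxidant list held 4 probe sets of 3 genes, with a median difference of 0.12: 1 rose and the other 3 did not pass. PCS1, phytochelatin synthase, which makes metal-binding peptides from glutathione, read 7.88, 7.89 and 7.75 at 13 °C and 6.11, 6.30 and 6.26 at 28 °C, groups well apart, and rose by 1.62 ± 0.09 (SE; limma adjusted p = 2.8e-06). Scaling to the hybridisation controls left 0.99, still past, and scaling to the poly-A controls 1.16, which did not pass (adjusted p = 0.32). CAT1, a catalase that breaks down hydrogen peroxide, differed by 0.22 (5.18 at 13 °C and 4.96 at 28 °C) and 0.031 on its probe sets, the second of them below background. The chloroplast thioredoxin Trx-M differed by -0.20, with 3.61 at 13 °C and 3.81 at 28 °C, both below background.

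The protein folding and repair list held 2 probe sets beside PIMT, and neither passed. FKBP70, a peptidyl-prolyl isomerase that helps proteins fold, was bright and close to the threshold, with 11.56, 11.49 and 11.57 at 13 °C and 11.76, 11.75 and 11.80 at 28 °C. Its difference was -0.23 (limma adjusted p = 0.057), and it passed under 3 alternatives, among them a trended and robust prior (adjusted p = 0.0070). The small heat shock protein hsp16.9A was below background at both temperatures (2.62 at 13 °C and 2.5 at 28 °C). Of 3 probe sets for glyoxalase, which detoxifies methylglyoxal with glutathione, and for HGGT, which makes the antioxidant tocotrienols, limma called 0, and 1 had an unadjusted p under 0.05. The lgul probe set above background read 6.08, 6.14 and 5.83 at 13 °C and 6.29, 6.27 and 6.20 at 28 °C (difference -0.24, limma adjusted p = 0.12). It passed with scaling to the hybridisation controls (-0.86, limma adjusted p = 0.046) and without 13 °C arrays 1 and 2 together (-0.42, limma adjusted p = 0.032).

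The named genes whose profile lay nearest to each member were found from the root mean square distance of centred log2 values over the 6 arrays, a measure of likeness that temperature dominates. Nearest to PIMT were EM (distance 0.14, difference 2.29) and Em (0.16, difference 2.39), small hydrophilic proteins of the late embryo, and then PCS1 (0.36). PCS1 was also nearest to the bright PER1 probe set (0.20), before AGA.1 (0.27) and the alpha-tubulin TUBA (0.28). For GSTZ1 these were DMAS1, a deoxymugineic acid synthase of iron uptake (0.097, difference -0.54), the dehydrin COR410, at background (0.13), and la-17 (0.14). For Prx1 they were GAG56D, a gliadin at background (0.12), the phosphoglycerate kinase Pgk-1 (0.17) and the gibberellin 20-oxidase GA20ox1d (0.19), none of them called. Only 200 probe sets have an informative name, and among all probe sets 47 lay nearer to PIMT than EM did, 310 nearer to PER1 than PCS1, 121 nearer to GSTZ1 than DMAS1 and 107 nearer to Prx1 than GAG56D.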

How the data were processed

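Per the submitters' processing notes, the authors deposited log2 values made with RMA, which subtracts background, quantile-normalizes the arrays and summarises each probe set. Not given in the sources used here: its version, the software and the set of arrays processed jointly. Of 61290 probe sets, 111 Affymetrix controls were left out of the tests. The old platform annotation paired 1273 probe sets with 1 gene, 0 with several and left 59906 unnamed here, and 1272 identifiers matched RefSeq genes of IWGSC CS RefSeq v2.1, used for names only. No positions are given, since the array names no build, and no sequences were used here.

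Differences came from limma 3.58.1 (R 4.3.3; lmFit and eBayes, two-sided, no covariate) on all 6 arrays, adjusted over 61179 probe sets. The fit was tested on simulated data in which far fewer probe sets changed than were called here. It recovered 8% of changes of 0.5 log2 units, 86% of changes of 1, 98% of 2 and 100% of 3. With fewer changes the Benjamini-Hochberg threshold is stricter, so these shares do not give the recovery in the data here. Exact permutation tests, two-sided, compared probe set pairs and controls (Python 3.11.15, numpy 2.4.6, pandas 2.3.3). The number of arrays limits precision.

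Genes and lists were chosen with earlier results of these data known, and the glyoxalase and HGGT list after gene names were read. All members were named, with every other informative gene of the redox and repair lists and the 3 nearest named genes per member. Alternatives changed array scaling, background filter, variance prior, replicate block and arrays used. No array batch could be tested.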

Additional observations from a re-analysis of the deposited data

How the results depend on the processing

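Scaling to the array median, a filter on dim probe sets and a trended, robust prior changed no call of a member they kept (the filter kept 8 of 10). Scaling to the hybridisation controls lowers all differences by the same 0.63: 2 members were higher in place of 5, 12469 of all probe sets passed in place of 20517 and 9228 in place of 5685 differed at least 2-fold, and Prx1 was at -0.15 and -0.095 on its 2 probe sets of cluster Ta.6572.1 and the avenin-like ALP at -0.16. The shift was 0.36 without 13 °C array 1, and with this array left out, an alternative chosen after seeing the data, 2 members were still higher and the brightest Prx1 probe set was at 0.17. With scaling to the poly-A controls 1 member was higher and 0 were lower, 3002 of all probe sets passed, all of them at least 2-fold, and PER1 (1.12), Prx1 (0.024) and GSTZ1 (-1.10) on their brightest probe sets did not pass, the SE being 0.54. With single arrays left out, 3 to 5 members were higher (3 without 28 °C array 2 or 3), 2 were lower, and the brightest Prx1 probe set was at 0.37 to 0.63, its call lost when array 2 or array 3 of either temperature was left out. Without 13 °C arrays 1 and 2 together 3 were higher and 1 was lower, with Prx1 at 0.41 and GSTZ1 at -0.43 not past. Leaving out the suffixes _x, _s and _a drops the tightest Prx1 probe set (called higher), the brightest GSTZ1 probe set (called lower) and the dim PER1 probe set. After that 1 member was lower. The cause of the other changes was not tested. With the replicate number as a block 20226 probe sets passed, 5690 of them at least 2-fold, and no member call changed. Same-numbered arrays hardly deviated together (correlations of 0.012 to 0.044), and no 13 °C array correlated best with its own number. Yet the block lowered the SE of every embryo marker probe set, from between 0.11 and 0.32 to between 0.094 and 0.19. Among the members the SE moved both ways. It fell from 0.15 to 0.10 for the dim PER1 probe set and rose from 0.082 to 0.091 for the tightest Prx1 probe set. Whether the numbers pair the arrays is not settled by these values. Depth here is signal over background: 2 of the 10 probe sets, both Prx1, had no 28 °C array above the unspiked controls.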

Other observations

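The dimmest Prx1 probe set, Ta.6572.3.S1_at, holds the same value to all deposited digits on 3 of the 6 arrays, 13 °C arrays 1 and 2 and 28 °C array 3. A value repeated on at least 3 arrays occurs in 4858 probe sets, 7.93% of the table.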
